A study of Arabidopsis thaliana with 6 samples.

Results

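The 10 SPL genes that carry a site for the microRNA miR156 were followed in seedlings of Arabidopsis thaliana. They are SPL2 (AT5G43270), SPL3 (AT2G33810), SPL4 (AT1G53160), SPL5 (AT3G15270), SPL6 (AT1G69170), SPL9 (AT2G42200), SPL10 (AT1G27370), SPL11 (AT1G27360), SPL13 (AT5G50570) and SPL15 (AT3G57920). They were chosen by gene ID from the 23022 genes listed in at least 1 library, and all 10 were listed, 9 of them in all 6 libraries. Messenger RNA was measured in 3 libraries of the mutant given in the labels as 17ab and in 3 libraries of wild type (WT). Both groups were grown on vertical plates for 10 days with no stress treatment named, and seedlings of similar size were frozen. The labels name neither the genes nor the alleles behind 17ab, and they do not say whether libraries came from separate plates.

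SPL genes encode transcription factors with an SBP domain that binds DNA at a GTAC core. In young plants miR156 is abundant and holds their transcripts low by cleavage and by blocking translation. As the shoot ages miR156 declines, SPL factors accumulate, and leaves take on adult features, a passage called vegetative phase change. SPL9 and SPL15 then activate miR172 genes, whose product lowers the AP2-like repressors of flowering. The title of the series ties the comparison of genotypes to vegetative development.

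The sequences that define the family are the miRNA and its site in each transcript, and both were read from the RefSeq annotation and genome of TAIR10.1. The mature miRNA is the same at 6 loci, miR156a to miR156f. Its seed, bases 2 to 8, is in capitals, beside that of miR157a to miR157c, which carry an added base at the 5′ end, and that of miR156j, annotated on the strand opposite the SPL9 site.
miR156a to miR156f: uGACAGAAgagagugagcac
miR156j: uGACAGAAgagagagagcac
miR157a to miR157c: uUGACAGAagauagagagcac
In the annotation 11 loci of miR156 and miR157 share the seed GACAGAA. The site in each SPL transcript is shown 5′ to 3′, with bases that do not form a Watson-Crick pair with miR156a in capitals. The site of 7 members, SPL2, SPL6, SPL9, SPL10, SPL11, SPL13 and SPL15, is identical in all 20 bases, lies in the coding sequence of the last exon and departs from a full match at miRNA position 14, counted from its 5′ end.
SPL9 and the other 6: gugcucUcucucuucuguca
SPL3: UugcuUacucucuucuguca
SPL4: CugcucUcucucuucuguca
SPL5: CCgcucUcucucuucuguca
The sites of SPL3, SPL4 and SPL5 lie in the 3′ untranslated region and have 2, 2 and 3 unpaired or wobble bases. For SPL9 the site is at chr2:17589066-17589085 on the plus strand in exon 3 of 3, and for SPL3 at chr2:14305878-14305897 on the plus strand in exon 2 of 2. The SPL4 site, at chr1:19807090-19807109 on the plus strand, is present in 1 of the 3 annotated SPL4 transcripts, while every annotated transcript of each of the other 9 members holds its site. The annotation places miR156i on the minus strand at the SPL4 site and miR156j on the minus strand at the SPL9 site, each over the same 20 bases. In the 6 SPL genes without a miR156 site, the closest match to the full complement held 6 to 10 unpaired or wobble bases. The closest match was chosen with a wobble counted less than a mismatch. The deposited tables list almost only protein-coding genes, and levels of miR156 or its precursors were not analysed here.

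Expected counts summed to between 5968854 and 6292461 per library. Since the labels name no mutated gene, they could not be checked by one. Transcripts of bZIP17, IRE1A and IRE1B, sensors of the unfolded protein response that the series title names, were lower in 17ab. Their ranges were 1.90 to 2.08, 3.73 to 4.06 and 4.52 to 5.27 FPKM in 17ab, against 10.2 to 11.3, 12.1 to 12.6 and 7.81 to 8.24 FPKM in WT. The labelled whole seedlings showed all 4 green tissue markers, while of 7 root markers SCR, SHR and AKT1 lay between 4.82 and 20.2 FPKM and WOX5, PLT1, PIN2 and NRT2.1 between 0 and 0.75 FPKM in all 6 libraries. Of 17854 genes tested with edgeR, 14.1% changed at an adjusted p under 0.05, 7.57% upward and 6.51% downward in 17ab.

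SPL3 and SPL9 fell in 17ab, and none of the 10 genes rose. Of the 10 genes 8 passed the filter on low counts, which left out SPL5 and SPL13, and 2 of these 8 fell. The background for falls was 6.51% of all genes tested. By unadjusted p under 0.05, 3 of the 8 differed, SPL15 being the third, against 27.5% of all genes tested. DESeq2 called none of the 10, against 7.86% of all genes. Its unadjusted p was under 0.05 for 2 of the 10, beside 3623 genes over the whole fit, in which 20336 had an adjusted p. Limma-trend on log2(FPKM + 1) called 1 of 8, SPL3, against 10.6% of all genes, and on log2(FPKM + 0.1) it again called SPL3, against 10% of all genes. Of the 8, 7 had a log2 fold change below 0, as had 50.4% of all genes tested, with a median of -0.27 against -0.002 over all genes. FPKM ranges of the genotypes did not overlap for SPL3 and SPL9, while 12.9% of all genes tested lay lower in 17ab without overlap and 31.1% did not overlap in either direction. SPL2 and SPL15 overlapped in FPKM but not in CPM, for which the share over all genes was not computed. Seedlings were sampled in bulk, so fewer cells that express a gene and less RNA per cell cannot be told apart.

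**Figure D1:**
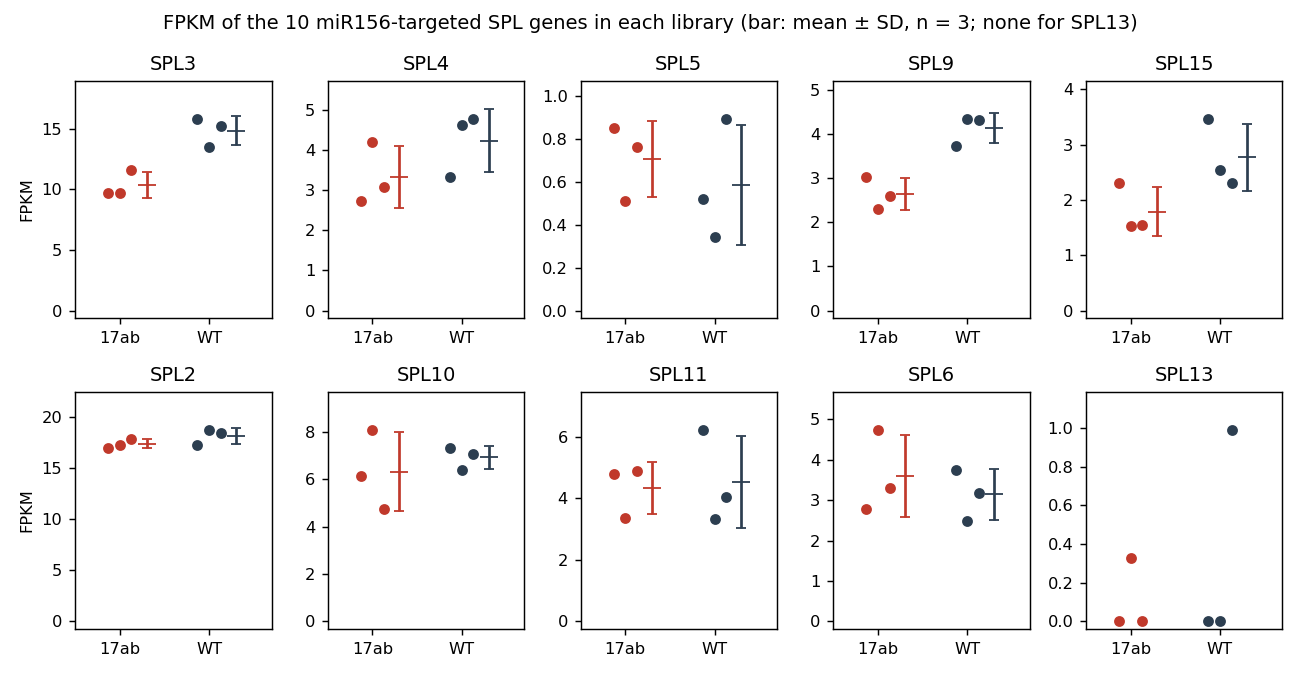
FPKM (vertical axis) of each of the 10 miR156-targeted SPL genes in the 3 libraries of 17ab (red) and the 3 of WT (dark), with mean and SD beside the points except for SPL13. The SPL3 points sit between 9.69 and 11.6 in 17ab, below the 13.5 to 15.8 of WT, and the SPL9 points between 2.31 and 3.03 in 17ab, below the 3.73 to 4.33 of WT.

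SPL3, SPL4 and SPL5 encode small proteins that promote flowering and consist of little beyond the SBP domain. SPL3 had 9.70, 9.69 and 11.6 FPKM in 17ab replicates 1 to 3, against 15.8, 13.5 and 15.2 FPKM in WT replicates 1 to 3. All 3 mutant libraries lay below the lowest WT library. The means were 10.3 ± 1.07 FPKM in 17ab and 14.8 ± 1.19 FPKM in WT (SD, n = 3 each), resting on 59 to 70 counts per library in 17ab and 81 to 94 in WT. The log2 fold change was -0.55 ± 0.15 (SE), a 0.683-fold level, with a 95% interval of -0.88 to -0.22 and an edgeR adjusted p of 0.02871. The call was lost without 17ab replicate 1 (adjusted p = 0.078), 17ab replicate 2 (0.0784), WT replicate 1 (0.1043) or WT replicate 3 (0.08293) and with DESeq2 (0.1303), all with log2 fold changes from -0.56 to -0.49. The lncRNA gene AT2G33815 overlaps SPL3 in the annotation, and the sources used here do not state the use of strand in counting.

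SPL4 had 2.72, 4.21 and 3.09 FPKM in 17ab, against 3.33, 4.62 and 4.77 FPKM in WT, and the groups overlapped. At a log2 fold change of -0.35 ± 0.29 and an interval of -0.97 to 0.28, SPL4 was not called (adjusted p = 0.4909 by edgeR), and the value was -0.20 without 17ab replicate 1 and -0.58 without 17ab replicate 2. SPL5 was near the floor of detection, with 0.85, 0.51 and 0.76 FPKM in 17ab and 0.52, 0.34 and 0.89 FPKM in WT, from 25 counts in all in 17ab and 20 in WT. Without the filter on low counts its log2 fold change was 0.24 ± 0.53 (adjusted p = 0.8382 by edgeR). An error of this size leaves small and moderate changes in either direction undetectable at this depth. Summed over SPL3, SPL4 and SPL5, the level was 14.4 ± 1.07 FPKM in 17ab and 19.7 ± 1.21 FPKM in WT (SD, n = 3 each), most of it from SPL3.

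SPL9 and SPL15 are close paralogs that slow the rate of leaf initiation and promote the adult leaf form and flowering. SPL9 had 3.03, 2.31 and 2.59 FPKM in 17ab, against 3.73, 4.33 and 4.31 FPKM in WT. The highest mutant library lay below the lowest WT library, with 26 to 34 counts per library in 17ab and 41 to 48 in WT. The log2 fold change was -0.67 ± 0.21, a 0.630-fold level, with an interval of -1.11 to -0.22 and an edgeR adjusted p of 0.0479, close to the threshold of 0.05. The call was lost without any 1 of the 6 libraries (adjusted p from 0.0551 without 17ab replicate 1 to 0.1361 without 17ab replicate 2), with DESeq2 (0.2189) and with limma-trend (0.07186 and 0.07578). Across those settings the log2 fold change stayed below 0, from -0.77 to -0.49. SPL15 had 2.30, 1.53 and 1.54 FPKM in 17ab, against 3.46, 2.55 and 2.30 FPKM in WT, so that the highest mutant library equalled the lowest WT library. Its log2 fold change of -0.66 ± 0.30 had an unadjusted p of 0.04739 and did not pass after adjustment (adjusted p = 0.1761 by edgeR), resting on 14 to 21 counts per library in 17ab and 20 to 31 in WT. Together SPL9 and SPL15 had 5.33, 3.84 and 4.13 FPKM in 17ab, against 7.19, 6.88 and 6.61 FPKM in WT. The sums did not overlap, but neither did SPL9 alone, so the sum adds nothing for SPL15. Among single genes tested, 12.9% lay lower in 17ab without overlap. The annotation overlaps SPL15 with AT3G57910, as it does SPL5 with AT3G15260, SPL6 with CRC and SPL13 with AT5G50565.

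**Figure D2:**
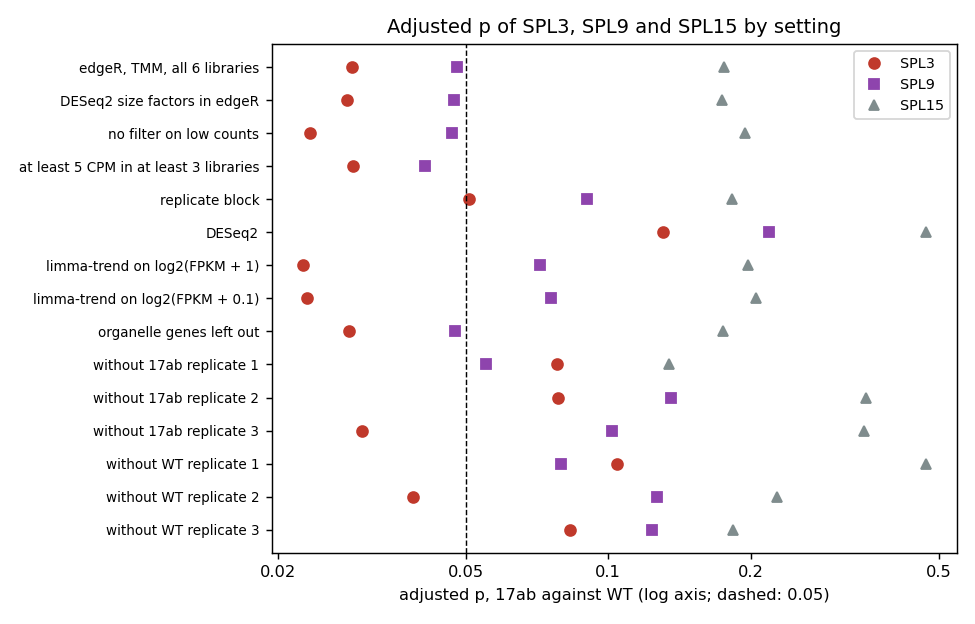
Adjusted p (horizontal log axis, dashed line at 0.05) of SPL3, SPL9 and SPL15 under each of 15 settings of the analysis (vertical axis). SPL3 runs from 0.02262 to 0.1303, SPL9 from 0.04103 to 0.2189, and SPL15 stays above the line in every setting that tested it.

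SPL2, SPL10 and SPL11 form a further branch of the family, with roles in leaf shape, trichomes and reproductive organs, and none of them passed the test. SPL2 had 17.0, 17.3 and 17.9 FPKM in 17ab, against 17.3, 18.8 and 18.4 FPKM in WT. It was the most abundant of the 10 genes and the most evenly expressed, and its interval of -0.28 to 0.11 around a log2 fold change of -0.08 was the narrowest of the 8 tested (adjusted p = 0.6129 by edgeR). SPL10 had 6.15, 8.09 and 4.76 FPKM in 17ab, against 7.33, 6.38 and 7.08 FPKM in WT, with a log2 fold change of -0.20 ± 0.19 (adjusted p = 0.5467 by edgeR). The mutant libraries of SPL10 held both the highest and the lowest value of the 6, and its log2 fold change was -0.46 without 17ab replicate 2 and -0.05 without 17ab replicate 3. SPL11 had 4.78, 3.37 and 4.89 FPKM in 17ab, against 6.22, 3.32 and 4.04 FPKM in WT, with a log2 fold change of -0.11 ± 0.23 (adjusted p = 0.8231 by edgeR). The sign of SPL11 turned without 17ab replicate 2 or WT replicate 1. The gene lengths by which the authors scaled these genes varied between libraries, from 1878 to 2159 bases for SPL10 and from 1771 to 2260 bases for SPL11, which moves FPKM apart from the counts.

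SPL6, which has been linked to immunity in Arabidopsis, had 2.78, 4.74 and 3.29 FPKM in 17ab, against 3.76, 2.49 and 3.19 FPKM in WT. SPL6 was not called at a log2 fold change of 0.17 ± 0.25 (adjusted p = 0.7237 by edgeR), and its sign turned without 17ab replicate 2. SPL13, a repressor of the step from the cotyledon to the first leaf stage, exists in near-identical copies, SPL13 (AT5G50570) and SPL13B (AT5G50670). All 50-base stretches of the SPL13B transcripts occur in those of SPL13, and 85.6% of the reverse, so the division of reads between them is uncertain. SPL13 was listed with 4.89 expected counts in 17ab replicate 2 and 13.75 in WT replicate 3 and with 0 in the other 4 libraries. SPL13B had 12.6, 17.6 and 15.1 FPKM in 17ab, against 11.3, 12.5 and 13.5 FPKM in WT, and did not pass the test (log2 fold change 0.26 ± 0.13, adjusted p = 0.2297 by edgeR). With both copies summed, a setting chosen after seeing the data, the counts were 134, 189 and 160 in 17ab and 117, 130 and 148 in WT, and the log2 fold change was 0.22 ± 0.14 (adjusted p = 0.3539 by edgeR).

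Ordered by mean FPKM over the 6 libraries, SPL2 (17.8) led SPL3 (12.6), SPL10 (6.63), SPL11 (4.44), SPL4 (3.79), SPL9 (3.38), SPL6 (3.37), SPL15 (2.28), SPL5 (0.645) and SPL13 (0.220). The place of SPL13 rests on the uncertain division of reads, since with SPL13B it summed to 15.2 FPKM in 17ab and 12.7 FPKM in WT. The ranges of SPL2 and SPL3 did not overlap, nor did those of SPL3 and SPL10 or of SPL15 and SPL5, while every other pair of neighbours in this order overlapped. The ranks of SPL4, SPL9 and SPL6 differed by genotype. SPL6 (3.60), SPL4 (3.34) and SPL9 (2.64) followed each other by mean FPKM in 17ab, against SPL4 (4.24), SPL9 (4.12) and SPL6 (3.15) in WT. SPL2 held 34.4% of the summed FPKM of the 10 genes in 17ab and 30.5% in WT, and SPL3 20.4% in 17ab and 24.9% in WT. That sum was 49.3, 52.1 and 50.4 FPKM in 17ab, against 61.4, 56.3 and 61.2 FPKM in WT, a ratio of 0.848. With SPL13B added, the sums were 61.9, 69.6 and 65.5 FPKM in 17ab, against 72.7, 68.7 and 74.7 FPKM in WT, so that the groups overlapped, at a ratio of 0.912. The genes whose log2 CPM followed SPL2 most closely over the 6 libraries were GSO1, XYL4 and AT5G48360, with Pearson correlations of 0.987, 0.987 and 0.984, given as a description.

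The SPL genes without a miR156 site are larger on the whole and include SPL7, the regulator of the copper deficiency response, and SPL8, which acts in pollen sac and trichome development. Of these 6 genes, all tested, 1 rose, none fell, and 5 had a log2 fold change above 0, with a median of 0.10. Of all genes tested 7.57% rose and 49.6% lay above 0. SPL16 (AT1G76580) had 10.11, 10.78 and 9.77 FPKM in 17ab, against 7.42, 7.66 and 8.0 FPKM in WT, a log2 fold change of 0.38 ± 0.09 (adjusted p = 0.0128 by edgeR). That call was lost without WT replicate 2 (0.05152), with DESeq2 (0.08313) and with limma-trend (0.05442 and 0.0523). SPL16 and SPL14 share 42 stretches of 50 bases, so the division of reads from these stretches between them is uncertain. SPL14 had a log2 fold change of 0.22 ± 0.07 (adjusted p = 0.06197 by edgeR), SPL1 of 0.07 ± 0.07 (0.5791), SPL7 of 0.11 ± 0.09 (0.4842), SPL8 of -0.09 ± 0.34 (0.8988) and SPL12 of 0.09 ± 0.08 (0.5246). The difference between SPL genes with and without a site was not tested.

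**Figure D3:**
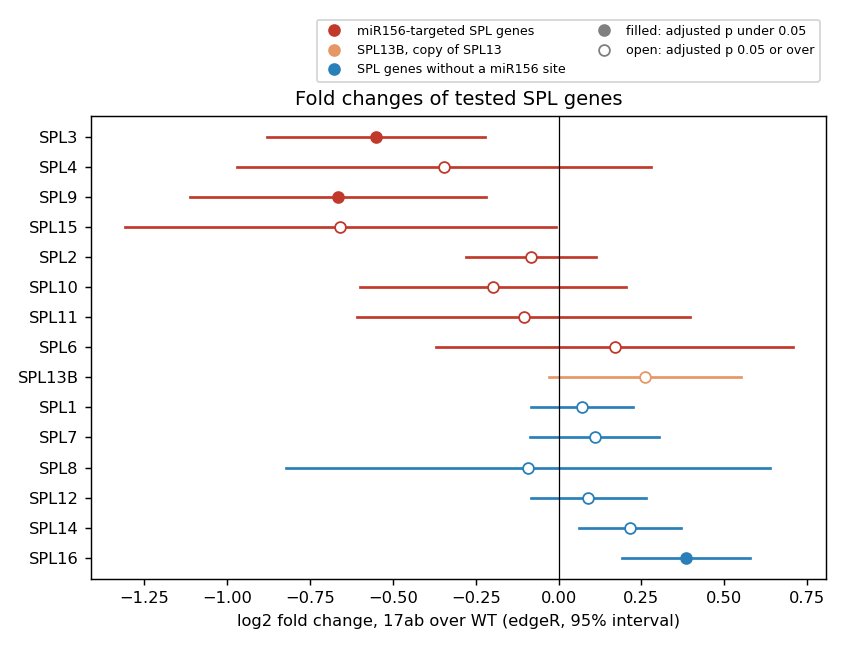
Log2 fold change of 17ab over WT (horizontal axis, edgeR, bars for the 95% interval) of the 8 tested miR156-targeted SPL genes (red), of SPL13B (orange) and of the 6 SPL genes without a site (blue). Filled points passed the adjusted threshold: SPL3 at -0.55, SPL9 at -0.67 and SPL16 at 0.38.

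Among 9 genes known to act downstream of SPL factors, 3 passed the filter on low counts, FT, SOC1 and DFR. Each of these 3 was called, while 14.1% of all genes tested changed. Whether their changes followed from those of the SPL genes was not tested. Without the filter the same 3 of the 9 were called, beside 2676 of 23017 genes. FT, which encodes the mobile florigen, had 7.76, 6.24 and 11.2 FPKM in 17ab, against 14.7, 24.2 and 12.96 FPKM in WT. Its log2 fold change was -1.07 ± 0.25 (adjusted p = 0.01408 by edgeR), and the call was lost without WT replicate 2, the library with the highest value (-0.76, adjusted p = 0.07426). SOC1, a MADS-domain integrator of flowering that SPL9 activates, had 17.7, 15.4 and 19.3 FPKM in 17ab, against 21.4, 22.2 and 22.7 FPKM in WT, and fell by 0.36 ± 0.10 in log2 CPM (adjusted p = 0.03561 by edgeR). The SOC1 call held in 1 of the 6 fits without 1 library, that without 17ab replicate 3, and neither limma-trend (adjusted p = 0.06322 and 0.0649) nor DESeq2 (0.153) called it. DFR, an enzyme of anthocyanin synthesis that SPL9 is known to hold down, rose to 2.09, 3.97 and 1.58 FPKM in 17ab, against 0.43, 0.64 and 0.66 FPKM in WT, a log2 fold change of 2.098 ± 0.45 (adjusted p = 0.007506 by edgeR). DFR rested on 20, 38 and 15 counts in 17ab, against 4, 6 and 6 counts in WT, so it passed the filter through its 17ab libraries alone. LFY, a regulator of floral identity activated by SPL3, was under the filter with 0.38, 0.13 and 0.25 FPKM in 17ab, against 0.86, 0.77 and 1.07 FPKM in WT, from 6 counts in all in 17ab and 21 in WT. The LFY groups did not overlap. Of all genes tested 31.1% did not overlap either, but LFY, with fewer counts, was not among them. Without the filter LFY did not pass (log2 fold change -1.82 ± 0.69, adjusted p = 0.1004 by edgeR). LFY was named after its values were seen. The other 5, FUL, AGL42, AP1, TCL1 and TRY, were also under the filter, and all 5 overlapped between the genotypes.

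The AP2-like targets of miR172, repressors of flowering and of adult leaf traits, all had log2 fold changes above 0, from 0.17 to 0.85 over 6 tested genes, with a median of 0.26. Of the 6, 1 rose and none fell, while of all genes tested 7.57% rose, 6.51% fell and 49.6% lay above 0. TOE2 had 13, 11.1 and 13.8 FPKM in 17ab, against 10.6, 8.40 and 8.56 FPKM in WT, a log2 fold change of 0.44 ± 0.13 (adjusted p = 0.03836 by edgeR). The TOE2 call was lost without 17ab replicate 1 (0.08203), 17ab replicate 3 (0.1146), WT replicate 2 (0.1461) or WT replicate 3 (0.1304), with DESeq2 (0.119) and with limma-trend (0.05967 and 0.06014). SMZ, named after its values were seen, had 10.0, 8.33 and 6.39 FPKM in 17ab, against 3.16, 4.0 and 6.47 FPKM in WT. SMZ was not called at a log2 fold change of 0.85 ± 0.27 (adjusted p = 0.05177 by edgeR, under 0.05 in 4 of 16 settings), and the lowest mutant library lay below the highest WT library.

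**Figure D4:**
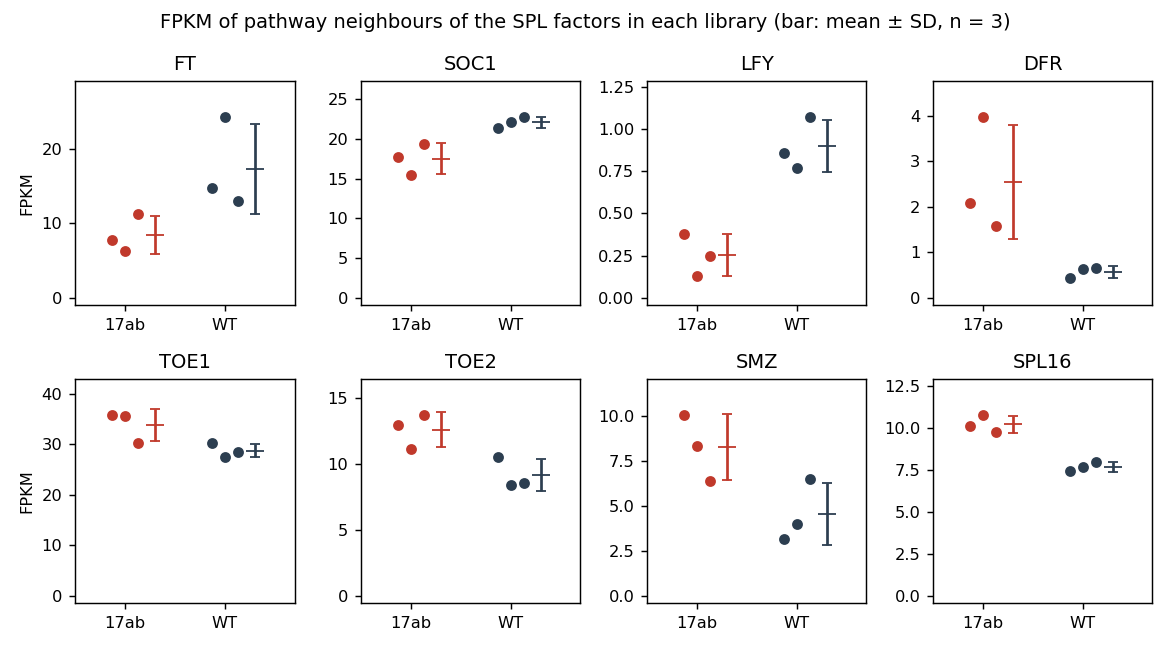
FPKM (vertical axis) of FT, SOC1, LFY, DFR, TOE1, TOE2, SMZ and SPL16 in the 3 libraries of 17ab (red) and the 3 of WT (dark), with mean and SD beside the points. FT, SOC1 and LFY lie lower in 17ab without overlap, with SOC1 at 15.4 to 19.3 against 21.4 to 22.7. DFR, TOE1, TOE2 and SPL16 lie higher without overlap. The genes shown were picked with their values known, so how many do not overlap is not a result. Of all genes tested, 31.1% did not overlap in either direction, and LFY was not among those tested. TOE1 was not called (adjusted p = 0.1942 by edgeR) and overlapped in CPM.

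None of the 15 tested regulators known to act on miR156 genes passed the edgeR test, among them the B3 factors VAL1 and VAL2, the chromatin remodellers PKL and BRM and the sugar sensor HXK1, with log2 fold changes from -0.34 to 0.19 and 1 unadjusted p under 0.05. Of all genes tested 14.1% passed and 27.5% had an unadjusted p under 0.05, the background for the miRNA and tasiR-ARF genes as well. None of the 11 genes of miRNA biogenesis and action passed, from DCL1, which cuts the precursors, to AGO1, which loads the miRNA. Their log2 fold changes ran from -0.22 to 0.16, with 2 unadjusted p under 0.05. In the tasiR-ARF pathway, which acts on leaf identity beside miR156, none of 6 tested genes passed, with 2 unadjusted p under 0.05, a share near that of all genes. AGO7, which binds miR390 to start tasiRNA production, had the highest log2 fold change, 0.55 (adjusted p = 0.08785 by edgeR), and passed without WT replicate 3 (0.79, adjusted p = 0.02626). AGO7 was named after its values were seen. DESeq2 called none of the genes in these 3 lists either.

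Markers of tissue makeup were read beside these results. The summed level of 6 markers of the shoot apex and leaf primordia, where SPL genes are expressed, was 50.6 to 56.3 FPKM in 17ab and 54.3 to 56.9 FPKM in WT. These ranges overlapped, none of the 4 tested apex markers passed, and CLV3 was at 0 in all 6 libraries. Most of the apex sum came from AS1, with a mean of 32.1 FPKM over the 6 libraries, while WUS lay between 0 and 0.13 FPKM. The summed green tissue markers overlapped as well, at 23460 to 26610 FPKM in 17ab and 25260 to 30190 FPKM in WT. All 4 had log2 fold changes below 0, 2 with an unadjusted p under 0.05, and edgeR called none, beside 50.4%, 27.5% and 14.1% of all genes tested. RBCS1A, a subunit of Rubisco named after its values were seen, did not overlap, at 8800 to 9620 FPKM in 17ab and 9849 to 11650 FPKM in WT (log2 fold change -0.26 ± 0.08, adjusted p = 0.05214 by edgeR), and was called without the filter on low counts (0.02185), with DESeq2 (0.02479), without organelle genes (0.04551), without 17ab replicate 2 (0.04195) and without WT replicate 2 (0.03104). The 7 root markers summed to 33.1 to 36.8 FPKM in 17ab and 28.1 to 31.7 FPKM in WT without overlap. AKT1, a potassium channel gene also used outside the root, rose (log2 fold change 0.90 ± 0.11, adjusted p = 0.0002546 by edgeR). The sums of the other 6 root markers overlapped, at 24.3 to 27.4 FPKM in 17ab and 23.0 to 26.9 FPKM in WT. Most of these sums came from SCR and SHR, with means of 17.4 and 7.11 FPKM over the 6 libraries. The 3 flower markers summed to 0.96 to 1.15 FPKM in 17ab and 1.97 to 2.30 FPKM in WT, again without overlap. Among single genes tested, 31.1% did not overlap in either direction. PI, a floral organ regulator named after its values were seen, had 0.65 FPKM in each library of 17ab and 1.46 to 1.58 FPKM in WT and was not called (log2 fold change -1.23 ± 0.40, adjusted p = 0.05723 by edgeR). PI rested on 5 counts in each 17ab library, against 11, 12 and 11 in WT, so it passed the filter through its WT libraries alone. Without the filter its adjusted p was 0.1164 by edgeR, and with DESeq2 it was 0.3246. AP3 and AG overlapped between the genotypes, as did their sum, at 0.31 to 0.50 FPKM in 17ab and 0.47 to 0.72 FPKM in WT. The part of green tissue, root and flower markers in the SPL results was not tested.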

How the data were processed

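Per the file headers, each deposited table holds an FPKM value, an expected count and a length for every gene listed. TAIR10, HTSeq 0.6.0, STAR 2.4.0 and DESeq2 appear in the submitters' processing notes without a role. The program behind the expected counts the authors deposited, and the use of strand, are not given in the sources used here. Genes missing from a library were taken as 0, and 3 counts equal 0.477 to 0.503 CPM. Intervals cover counting error and the spread between libraries, which may be technical.

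Rounded expected counts entered edgeR 4.0.16 under R 4.3.3 (quasi-likelihood test, TMM, default filter on low counts, Benjamini-Hochberg adjustment over 17854 genes). Genotype was the only term, and the test was checked on simulated data. The standard error (SE) was taken as |log2 fold change| over the root of F. No 2 libraries were identical.

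The members and gene lists were chosen with earlier results of these data known. By rule, values were given for the 10 members, SPL13B, the SPL genes without a site, the sensor transcripts and list genes past the threshold. SMZ, LFY, AGO7, TOE1, RBCS1A, PI and the other list genes that did not pass were named outside this rule, after values were seen or as examples of a list. Alternatives were DESeq2 size factors, no filter, 5 CPM in 3 libraries, a replicate block, DESeq2 1.42.0, limma-trend (limma 3.58.1) on deposited FPKM as log2(FPKM + 1) and log2(FPKM + 0.1), no organelle genes, and each library left out. Sites were sought without gaps by complementarity to miR156a in RefSeq transcripts of TAIR10.1, whose coordinates are its own.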

Additional observations from a re-analysis of the deposited data

How the results depend on the processing

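The 2 calls among the SPL genes held with DESeq2 size factors, no filter, the stricter filter, no organelle genes and the SPL13 copies summed. The number of SPL genes called was 0 with DESeq2, where 2 had an unadjusted p under 0.05, 1 with limma-trend at either pseudocount and 0 to 1 without 1 library. Over all genes 2515 changed, 1599 with DESeq2 and 1571 to 2090 without 1 library. Of 60 tested genes in the other lists 6 changed, beside 14.1% of all genes. Without the filter 8 of 74 changed, beside 2676 of 23017 genes. With limma-trend 3 of 62 changed at either pseudocount, beside 10.6% of all genes at 1 and 10% at 0.1. Without 1 library 3 to 6 changed. With the replicate number as a block, 0 SPL genes, 5 genes of the other lists and 1853 of all genes were called, with adjusted p of 0.05079 for SPL3, 0.09017 for SPL9 and 0.05923 for SOC1, which lost their calls. Same-numbered libraries did not deviate together (correlations of -0.00279, -0.108 and -0.0457), so the numbers were not read as pairs. Signs of log2 fold changes turned for SPL11 (0.040 without 17ab replicate 2, range without 1 library -0.322 to 0.106), SPL6 (range -0.084 to 0.331, negative without 17ab replicate 2) and SPL8 (0.111 without WT replicate 3, range -0.310 to 0.169). The cause of these changes was not tested. The SPL3 call was lost under 6 of 15 alternatives and the SPL9 call under 10 of 15. Members with under 35 counts per library, SPL4, SPL5, SPL9 in 17ab, SPL13 and SPL15, are limited most by depth.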
